A study of Drosophila melanogaster with 8 samples.

Results

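The cuticle protein genes of wing discs were described here from read counts per gene. They were taken by symbol from the deposited table (symbols that begin with Cpr and a number, Ccp84, Lcp, Twdl, Edg, Pcp or Acp65), with no measured value used, which gave 101 of the 14300 genes in the table. Of these, 48 lie on chromosome arm 3L, 27 on 2R, 14 on 3R, 6 on 2L and 6 on X in the BDGP6 annotation, and 2 (Lcp1Psi and Lcp65APsi) are annotated as pseudogenes. A member was taken as expressed at a mean of 0.5 counts in each 1000000 (CPM) or more in either genotype.

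Insect cuticle is secreted by epidermal cells as a matrix of chitin fibres embedded in proteins. Most of the proteins named Cpr, Lcp, Ccp84, Edg, Pcp and Acp65 share a chitin-binding sequence, the Rebers and Riddiford consensus, whereas Tweedle (Twdl) proteins form a separate family. Each larval, pupal and adult cuticle uses its own set, and the switches between them follow pulses of the moulting hormone ecdysone and the transcription factors it induces.

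The mesothoracic wing disc is the larval epithelium that gives rise to the adult wing and notum. The data were 5 libraries from Myb mutant discs and 3 from yw67 control discs, all from male larvae of the third instar kept at 25°C. Myb is a DNA-binding transcription factor and a subunit of the dREAM complex, and the comparison asks which genes depend on it. The mutants carried the null allele Myb MH107 (Df(1)MH107, w1118), labelled as lethal in early pupae. It is a P-element-derived deletion that takes the start of Myb together with AlkB, a gene the study describes as dispensable. In these libraries the loss of Myb and that of AlkB occur together and cannot be told apart, although the methods state that a Myb cDNA rescues the mutant phenotypes. Control males were yw67 (y1 w67c23). The mutant line had been crossed repeatedly to that stock to reduce differences in background, which need not have removed all of them. One statement in the labels gave 5 and 3 biological replicates. The descriptions of single samples instead traced every control library to 1 biological source, mutant library 1 to another, and mutant libraries 2 to 5 to yet another, as repeats of a technical kind. The p-values therefore measure the spread between libraries, which may be technical, and the libraries were also summed by described replicate.

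Library totals ran from 50562199 to 65322440 counts. Myb lay between 4.56 and 7.24 CPM in mutant libraries, against 295 to 305 CPM in control libraries, and AlkB had 0 counts in every mutant library, against 7.21 to 8.39 CPM in control libraries, as the labels say. All 10 wing disc markers were measured, with summed levels of 1975 to 2062 CPM in mutant libraries and 1670 to 2043 CPM in control libraries. The 5 hemocyte markers were all lower in the mutant, with sums of 5.45 to 18.8 CPM against 169 to 235 CPM in the control. Sums of 6 fat body markers ran from 470.2 to 5229.9 CPM in mutant libraries and from 74.2 to 4565 CPM in control libraries. Those of 6 salivary gland markers ran from 0.63 to 193 CPM and from 4.07 to 17.6 CPM in the same order. Of 6 tracheal markers (the tracheal cells on the disc also secrete cuticle), Gasp was called higher and trh and btl lower, with sums of 1316 to 1465 CPM in mutant libraries and 1204 to 1522 CPM in control libraries. The part of these tissues in the member values was not tested. None of the fat body, salivary gland, muscle or neuron markers passed the test. In whole-tissue RNA, fewer cells of a type and less RNA per cell cannot be told apart.

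Of the 101 members, 30 (29.7%) were expressed, while 59.2% of all genes in the table reached the same level. Another 52 members had counts but stayed below 0.5 CPM, and 19 had 0 counts in all 8 libraries, which allows up to 0.0103 CPM over the mutant libraries and 0.0181 CPM over the control libraries (3 counts over a group; counting error only). Of the expressed members, 25 reached 0.5 CPM in the mutant and 28 in the control, 23 of them in both. Lcp65Ag2 and Lcp9 did so in the mutant alone, and Lcp3, Cpr97Eb, Cpr97Ea, Cpr56F and Cpr62Bc in the control alone. By the higher of the genotype means, 2 members exceeded 100 CPM, 4 lay between 10 and 100, 16 between 1 and 10, and 8 between 0.5 and 1.

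**Figure D1:**
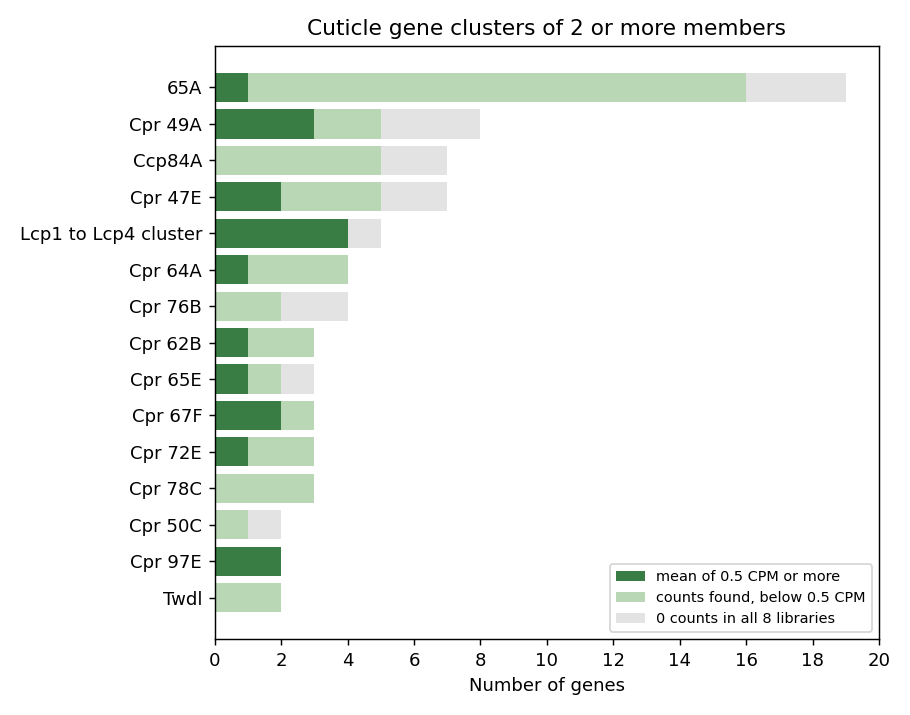
Number of genes in each cuticle gene cluster of 2 or more members (horizontal axis), divided by level: a mean of 0.5 CPM or more in either genotype, counts found below that, and 0 counts in all 8 libraries. The 65A cluster has 19 members with 1 expressed, and the Ccp84A cluster has 7 with 0 expressed, while all but a pseudogene of the Lcp1 to Lcp4 cluster are expressed.

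Members that were not expressed included genes of other stages and most of 2 large clusters. The 65A cluster, which spans 31.2 kb of 3L (6130386 to 6161589) and holds larval cuticle genes and the adult cuticle gene Acp65Aa, had 19 members, of which 1, Lcp65Ag2, was expressed. Acp65Aa averaged 0 CPM in the mutant and 0.0122 CPM in the control. None of the 7 Ccp84A genes of 3R and neither Tweedle gene was expressed. Pcp, a pupal cuticle gene nested in an intron of the purine synthesis gene Gart, averaged 0.144 CPM in the mutant and 0.101 CPM in the control. Of the genes induced in prepupae after ecdysone (Edg), Edg84A had 0 counts in every library. Edg78E averaged 0.195 ± 0.0998 CPM in the mutant (SD, n = 5) and 0.206 ± 0.122 CPM in the control (SD, n = 3). Edg91 was expressed, at 1.16 ± 0.422 CPM in the mutant and 1.62 ± 0.0413 CPM in the control, with a log2 fold change of -0.48 ± 0.27 (SE) that did not pass the test (edgeR adjusted p = 0.20) but did so without mutant library 3 (-0.73, adjusted p = 0.0263). Just above the threshold of expression were Lcp9 (higher genotype mean 0.543 CPM) and Cpr97Ea (0.600 CPM), and just below it Lcp65Ab2 (0.489 CPM) and Cpr100A (0.488 CPM).

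Summed over all members, cuticle protein genes took 481 ± 23.5 CPM in the mutant (SD, n = 5) and 468 ± 95.6 CPM in the control (SD, n = 3). Cpr49Ac and Cpr64Aa together made up 60.5% to 66.8% of that sum in mutant libraries and 68.3% to 68.9% in control libraries. Without them the sum was 178 ± 15.3 CPM in the mutant and 147 ± 29.1 CPM in the control. The same total thus held both higher and lower members. Per kilobase of exon in BDGP6, Cpr64Aa stood highest, at 131 CPM per kb in the mutant and 176 CPM per kb in the control. Cpr49Ac followed at 80.6 and 67.8 CPM per kb, and Cpr66D at 37.7 and 18.7 CPM per kb, mutant before control.

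**Figure D2:**
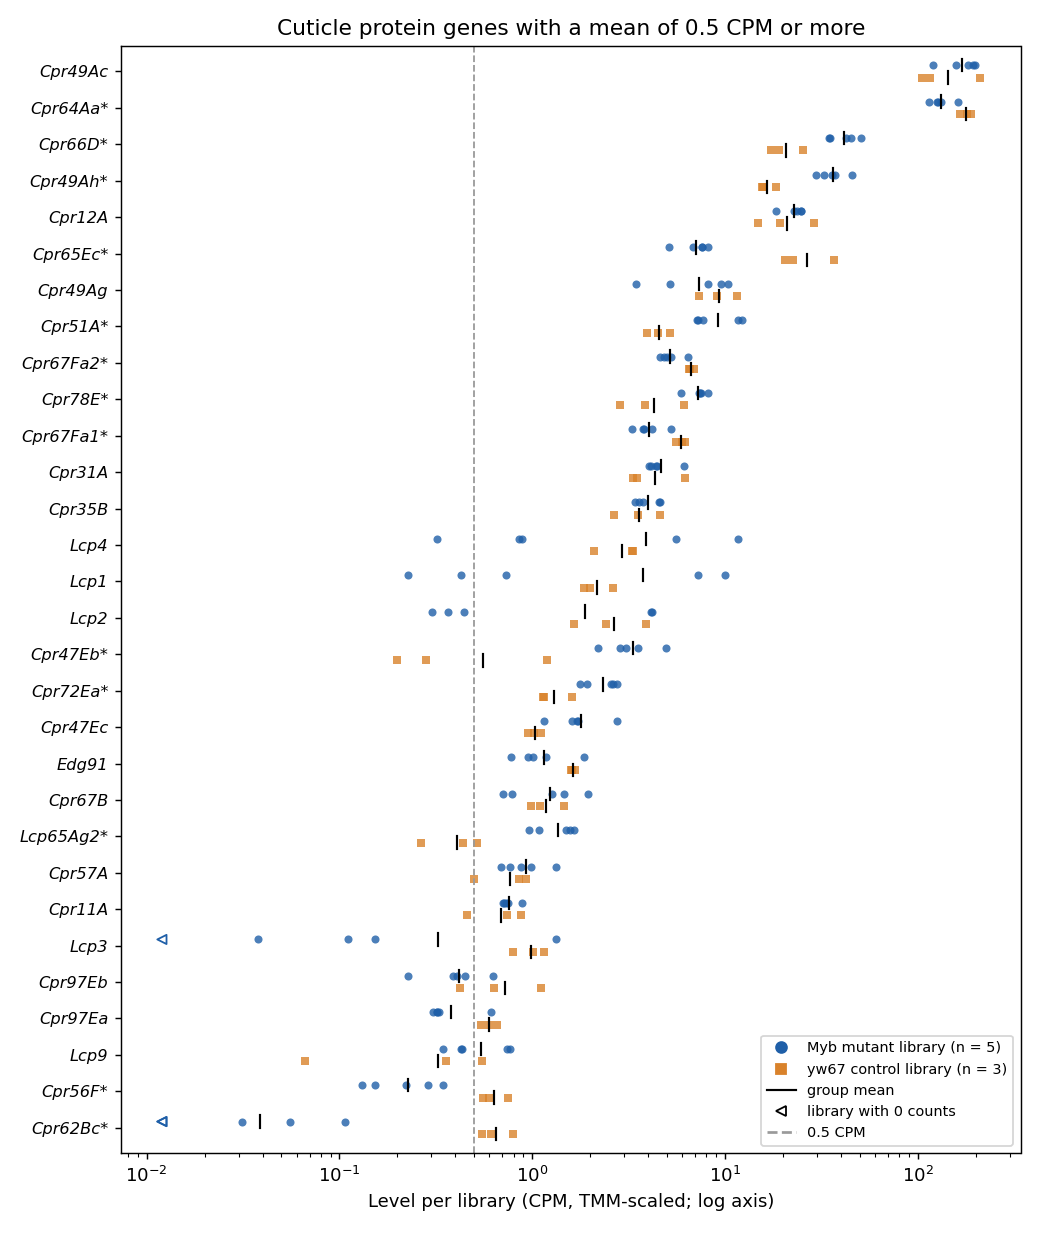
Level of the 30 expressed cuticle protein genes in each library (horizontal log axis, TMM-scaled CPM), with Myb mutant libraries above yw67 control libraries, black ticks at group means, and open triangles for libraries with 0 counts. An asterisk marks an adjusted p under 0.05; Cpr65Ec and Cpr47Eb have groups that lie apart, while the mutant libraries of Lcp1, Lcp2, Lcp3 and Lcp4 scatter on both sides of the control.

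The comparison between genotypes used edgeR's quasi-likelihood test with Benjamini-Hochberg adjustment over all 9076 genes that passed a filter on low counts. Of the 101 members 41 passed that filter, the 30 expressed ones and 11 below 0.5 CPM, and 60 were not tested. Among the 41, 16 (39.0%) had an adjusted p under 0.05, beside 34.4% of all genes tested. Of these, 9 were higher in the mutant and 7 lower, beside 16.9% and 17.5% of all genes tested. The share of members called was thus near that of all genes. At a fold of 2 or more, 11 members were called (26.8%), 7 higher and 4 lower, beside 7.06% of all genes tested, or 11.3% of those under 50 CPM in both genotypes, where most members lie; higher calls of that size made up 4.64% and lower ones 2.42% of all genes tested. The median log2 fold change was 0.06 over the tested members and 0.01 over all genes tested, and the median of its absolute value was 0.71 and 0.18. None of these backgrounds was matched to the members in level. The median tested gene had 34.4 CPM in each genotype, and most members lay far below that. An excess of large changes among the members is therefore not established. Mutant and control libraries did not overlap for 15 members (36.6%), beside 38.9% of all genes tested. With libraries summed by described replicate, which leaves 1 control sum and takes the spread from 2 mutant sums alone, 4 of the 16 members were called (Cpr66D, Cpr47Eb and Cpr78E higher, and Cpr65Ec lower), and the lone control sum was assumed to vary like the mutant ones.

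**Figure D3:**
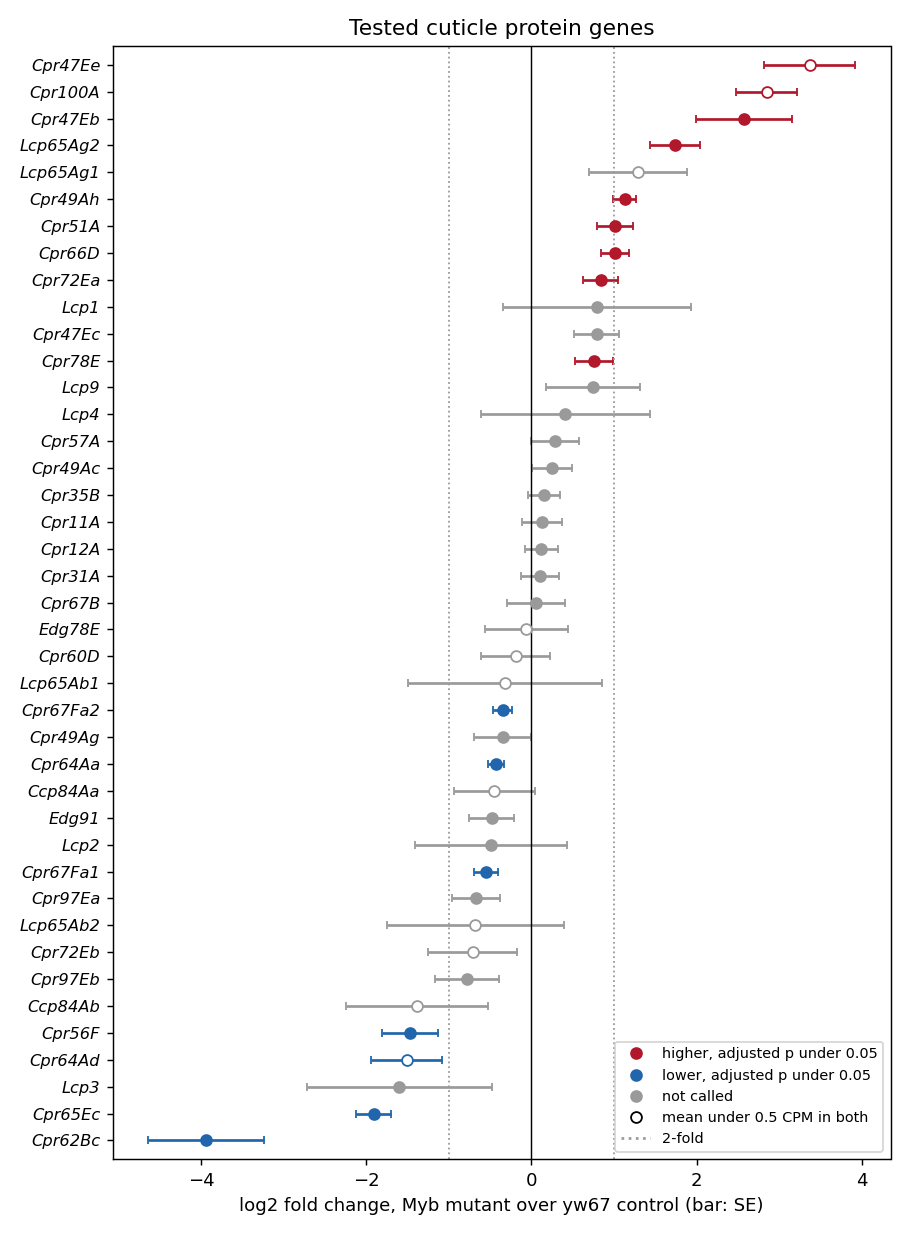
Log2 fold change of the 41 tested cuticle protein genes, Myb mutant over yw67 control (horizontal axis; bars, SE), in red for higher and blue for lower members with an adjusted p under 0.05, grey for the rest, and open for a mean under 0.5 CPM in both genotypes. The called members run from Cpr62Bc at -3.94 to Cpr47Ee at 3.37, and the widest bars among the uncalled are those of larval cuticle genes.

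The clearest gain among well-expressed members was in Cpr49Ah and Cpr66D, which encode proteins with the chitin-binding consensus. Cpr49Ah (2R, 12413962 to 12415170) had 29.6, 35.9, 37.4, 32.8 and 45.9 CPM in mutant libraries 1 to 5, against 18.4, 15.6 and 15.7 CPM in control libraries 1 to 3. Every mutant library lay above every control library, and the log2 fold change was 1.13 ± 0.14 (SE; edgeR adjusted p = 0.00039). Cpr66D (3L, 8640439 to 8643584) had 34.6, 51.0, 35.2, 44.9 and 42.2 CPM in the mutant, against 19.1, 25.5 and 17.2 CPM in the control. Its groups did not overlap either, and it rose by 1.01 ± 0.17 (SE) on the log2 scale (edgeR adjusted p = 0.00205).

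Cpr49Ah is one of 8 members in the Cpr 49A cluster (2R, 12376626 to 12415170), and the other expressed members of that cluster behaved differently. Cpr49Ac had 198, 159, 193, 120.4 and 183 CPM in mutant libraries 1 to 5, against 106, 209 and 115 CPM in control libraries 1 to 3. The control libraries spread from below to above all mutant libraries, and the log2 fold change of 0.25 ± 0.24 (SE) did not pass the test (edgeR adjusted p = 0.459). Without control library 2 it was 0.62 (adjusted p = 0.0337), and over the 8 fits that left out 1 library each the adjusted p ran from 0.0337 to 0.853. Cpr49Ag had 9.51, 3.46, 5.21, 8.17 and 10.4 CPM in the mutant, against 7.35, 11.6 and 9.13 CPM in the control, with overlapping groups and a log2 fold change of -0.35 ± 0.34 (edgeR adjusted p = 0.449). The members Cpr49Aa, Cpr49Ab and Cpr49Ad of the cluster had 0 counts throughout.

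Cpr51A, a single gene on 2R (14512559 to 14515211), rose by 1.01 ± 0.22 (SE) on the log2 scale (edgeR adjusted p = 0.00872). Its mutant libraries 1 to 5 held 7.22, 11.7, 7.15, 12.2 and 7.67 CPM, against 5.20, 4.52 and 3.96 CPM in control libraries 1 to 3, with no overlap. Cpr78E (3L, 21666452 to 21666980) averaged 7.27 ± 0.835 CPM in the mutant (SD, n = 5) and 4.28 ± 1.68 CPM in the control (SD, n = 3). Its groups overlapped, since mutant library 3 had 5.91 CPM and control library 2 reached 6.13 CPM, and its call (0.76 ± 0.23, edgeR adjusted p = 0.0317) was lost in 6 of the 8 fits that left out 1 library. Cpr72Ea (3L, 16362603 to 16363750) had 1.77 to 2.74 CPM in mutant libraries and 1.14 to 1.61 CPM in control libraries. It rose by 0.84 ± 0.21 on the log2 scale (edgeR adjusted p = 0.0156), a call that ended without control library 1 (adjusted p = 0.0533; 0.00882 to 0.0533 over the 8 fits).

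The Cpr 47E cluster (2R, 11251751 to 11278445) was the one with more than 1 member called higher. Its summed level was 5.55 ± 1.11 CPM in the mutant (SD, n = 5) and 1.67 ± 0.631 CPM in the control (SD, n = 3). Cpr47Eb (11255167 to 11255983) had 2.87, 2.20, 3.08, 4.93 and 3.55 CPM in mutant libraries 1 to 5, against 0.199, 1.19 and 0.281 CPM in control libraries 1 to 3. Control library 2 stood well above the other control libraries but below every mutant library, and the log2 fold change was 2.57 ± 0.58 (SE; edgeR adjusted p = 0.00984), or 3.77 without control library 2 and 2.18 without control library 1 (adjusted p = 0.00029 to 0.0335 over the 8 fits). Cpr47Ee, named after its values were seen and under 0.5 CPM in both genotypes, had 32, 22, 25, 12 and 25 counts in the mutant, against 1, 4 and 1 counts in the control. Its fitted log2 fold change was 3.37 ± 0.55 (edgeR adjusted p = 0.00187), or 4.30 without control library 2. Cpr47Ec, also named after its values were seen, had 1.15 to 2.76 CPM in mutant libraries and 0.953 to 1.12 CPM in control libraries. Those groups did not overlap, yet with a log2 fold change of 0.79 ± 0.27 it missed the threshold in edgeR (adjusted p = 0.05003) and passed it in DESeq2 (adjusted p = 0.0207; 0.0234 to 0.124 over the 8 edgeR fits that left out 1 library).

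Lcp65Ag2 (3L, 6132990 to 6133593) is one of 3 near-identical larval cuticle genes, Lcp65Ag1, Lcp65Ag2 and Lcp65Ag3, so the assignment of reads among them is uncertain. It had 0.967, 1.58, 1.50, 1.65 and 1.08 CPM in mutant libraries 1 to 5, against 0.516, 0.439 and 0.264 CPM in control libraries 1 to 3. No mutant library overlapped a control library, and it rose by 1.74 ± 0.30 (SE) on the log2 scale (edgeR adjusted p = 0.00251). Lcp65Ag1 had a log2 fold change of 1.29 ± 0.59 that did not pass the test (edgeR adjusted p = 0.125), and Lcp65Ag3 was not tested, with 36 counts over the mutant libraries and 3 over the control libraries. Cpr100A (3R, 30867521 to 30869184), just under the threshold of expression, averaged 0.488 ± 0.101 CPM in the mutant and 0.0646 ± 0.0309 CPM in the control, a log2 fold change of 2.85 ± 0.37 (edgeR adjusted p = 0.00055).

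Among the members that fell, Cpr65Ec had the most counts behind a change of over 2-fold. Cpr65Ec (3L, 7093204 to 7093841), a Cpr gene of the 65E cluster, had 6.81, 7.59, 7.62, 5.15 and 8.18 CPM in mutant libraries 1 to 5, against 20.5, 36.9 and 22.4 CPM in control libraries 1 to 3. The highest mutant library was under the lowest control library by a wide margin, and it fell by 1.91 ± 0.21 (SE) on the log2 scale, a fold of 3.76 (edgeR adjusted p = 0.00019). This was the member with the lowest adjusted p, and in the 8 fits that left out 1 library its log2 fold change stayed between -2.07 and -1.61. Cpr65Ea of the same cluster had 0 counts in every library.

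Cpr62Bc (3L, 1840281 to 1842084) was close to silent in the mutant. It had 0, 0, 7, 3 and 2 counts in mutant libraries 1 to 5, against 40, 30 and 37 counts in control libraries 1 to 3. The 12 mutant counts and 107 control counts gave a log2 fold change of -3.94 ± 0.70 (SE; edgeR adjusted p = 0.00306), which rests on few reads and was -4.75 without mutant library 3. Cpr56F (2R, 20288371 to 20291945) had 0.132 to 0.344 CPM in mutant libraries and 0.556 to 0.750 CPM in control libraries. It fell by 1.47 ± 0.34 on the log2 scale (edgeR adjusted p = 0.0103). Cpr64Ad, named after its values were seen and under 0.5 CPM in both genotypes, overlapped by a little, with 0.0782 to 0.269 CPM in the mutant and 0.264 to 0.585 CPM in the control. Its log2 fold change of -1.51 ± 0.43 (edgeR adjusted p = 0.0254) lost the call in 4 of the 8 fits that left out 1 library.

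Smaller decreases were found at higher levels. Cpr64Aa (3L, 4207838 to 4209178), at the other end of the 8.58 kb Cpr 64A cluster from Cpr64Ad, had 114, 127, 132, 162 and 126 CPM in mutant libraries 1 to 5, against 180.3, 189 and 165 CPM in control libraries 1 to 3. Mutant library 4 came within a few CPM of control library 3 without overlap, and the log2 fold change was -0.43 ± 0.10 (SE; edgeR adjusted p = 0.0124). The near-identical neighbours Cpr67Fa1 and Cpr67Fa2 (3L, 10889990 to 10892516), between which read assignment is uncertain, fell by 0.55 ± 0.15 and 0.35 ± 0.12 on the log2 scale (edgeR adjusted p = 0.0197 and 0.0448). Cpr67Fa1 had 3.31 to 5.23 CPM in mutant libraries and 5.57 to 6.18 CPM in control libraries. Cpr67Fa2 had 4.62 to 6.43 CPM in mutant libraries and 6.49 to 6.88 CPM in control libraries. The call for Cpr67Fa2 was lost in 7 of the 8 fits that left out 1 library, and that for Cpr67Fa1 without control library 1 (adjusted p = 0.0538; 0.00373 to 0.0538 over the 8 fits).

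In the major larval cuticle genes the mutant libraries differed widely among themselves. Lcp1, Lcp2, Lcp3 and Lcp4 encode abundant proteins of the cuticle of the last larval instar and lie together within 8.38 kb of 2R (8430115 to 8438495). They and Lcp65Ab1 are named after their values were seen. Their summed level was 24.5, 0.883, 2.14, 1.83 and 19.8 CPM in mutant libraries 1 to 5, against 7.98, 10.8 and 7.30 CPM in control libraries 1 to 3. Mutant libraries 1 and 5 were above all control libraries and mutant libraries 2, 3 and 4 below them.

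Single genes of the cluster showed the same split, with one exception. Lcp1 had 7.27, 0.226, 0.735, 0.426 and 10.1 CPM in mutant libraries 1 to 5, against 1.87, 2.63 and 2.00 CPM in control libraries 1 to 3. Lcp4 had 11.7, 0.320, 0.888, 0.853 and 5.57 CPM in the mutant, against 3.32, 3.31 and 2.10 CPM in the control. Lcp3 departed from the others, being high in mutant library 1 alone: it had 1.33, 0.0376, 0.153, 0.111 and 0 CPM in the mutant, against 1.15, 1.01 and 0.793 CPM in the control. Within mutant libraries 2 to 5, described as technical replicates of 1 biological replicate, Lcp1 differed 44.6-fold from lowest to highest. Reads of Lcp1 and Lcp2, which are near-identical, may be divided between them with error.

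**Figure D4:**
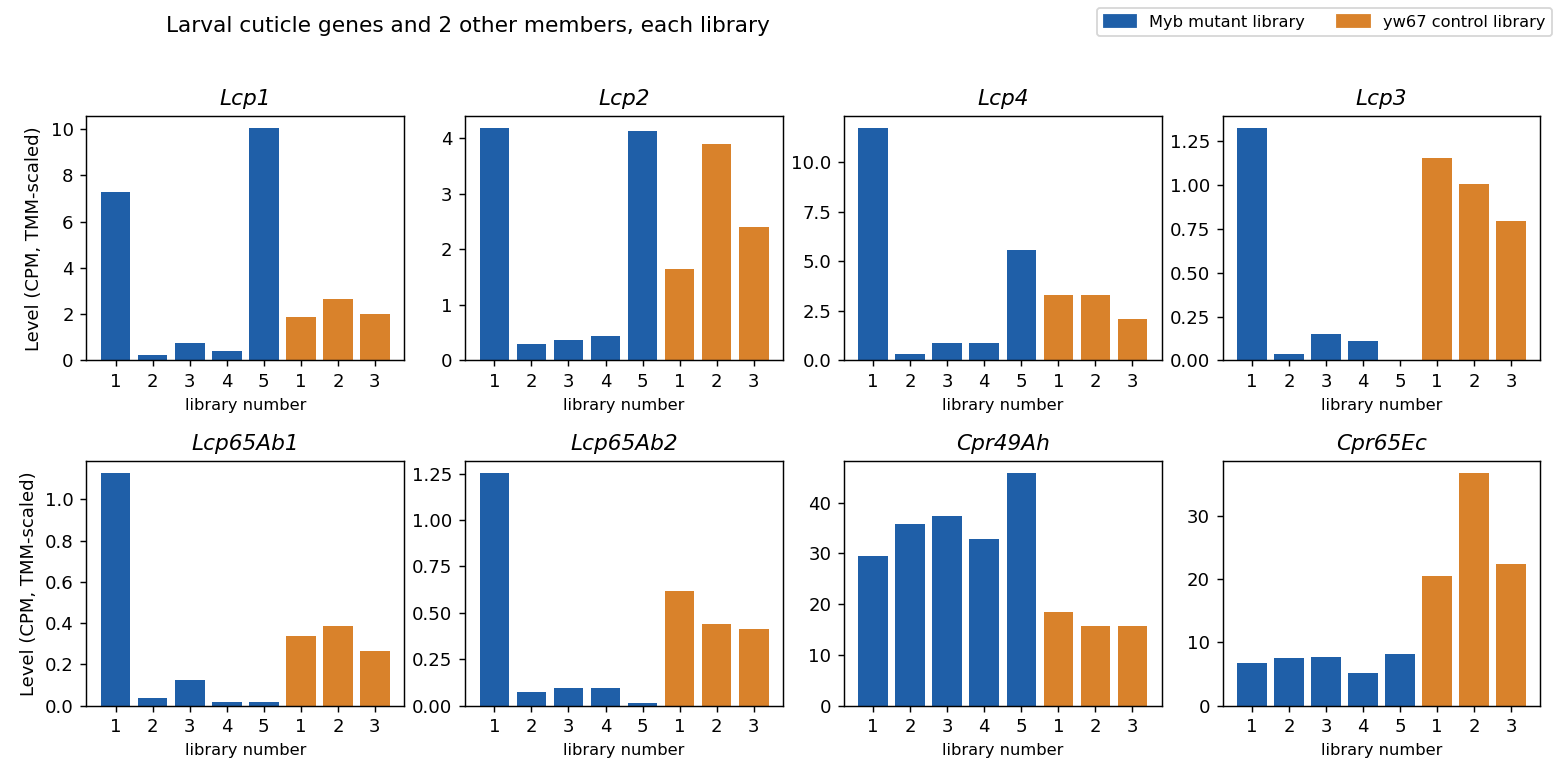
Level of 6 larval cuticle genes and, for comparison, Cpr49Ah and Cpr65Ec (vertical axes, TMM-scaled CPM from 0) in Myb mutant libraries 1 to 5 and yw67 control libraries 1 to 3. Mutant libraries 1 and 5 are high for Lcp1, Lcp2 and Lcp4, and mutant library 1 alone for Lcp3, Lcp65Ab1 and Lcp65Ab2, while Cpr49Ah and Cpr65Ec separate the genotypes in every library.

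None of the 4 genes passed the test (edgeR adjusted p = 0.299 to 0.782, with log2 fold changes of -1.60 ± 1.12 for Lcp3, -0.49 ± 0.92 for Lcp2, 0.41 ± 1.02 for Lcp4 and 0.79 ± 1.14 for Lcp1). With mutant libraries 1 and 5 left out together, the log2 fold changes were -2.21 for Lcp1, -2.83 for Lcp2, -3.23 for Lcp3 and -2.07 for Lcp4. Those libraries were left out because they were seen to be high, so the lower direction follows from the choice and these values are a description only. Leaving out any 1 library ended in a call for Lcp3 alone among the 4, without mutant library 1 (log2 fold change -3.66, adjusted p = 0.00562; up to 0.437 in the other fits). Lcp65Ab1 and Lcp65Ab2, a near-identical pair of larval cuticle genes, were likewise high in mutant library 1, at 1.13 and 1.25 CPM. Lcp65Ab2 had 0.0156 to 0.0927 CPM in the other mutant libraries and 0.413 to 0.615 CPM in control libraries. Without mutant library 1, the log2 fold change was -2.80 for Lcp65Ab2 and -2.66 for Lcp65Ab1 (edgeR adjusted p = 0.00354 and 0.0137), while with all libraries it was -0.68 and -0.32 (0.655 and 0.857). Mutant library 1 was the one seen to be high for Lcp3, Lcp65Ab1 and Lcp65Ab2. Their lower values without it follow from that and are a description only.

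Markers of other tissues varied between the same libraries. The fat body sum was 5229.9, 470.2, 1830, 3448 and 758 CPM in mutant libraries 1 to 5, against 4565, 1852 and 74.2 CPM in control libraries 1 to 3. Mutant library 1 was highest, but mutant library 5 was among the lower ones. The salivary gland sum was 193, 5.11, 41.7, 0.63 and 9.50 CPM in the mutant, against 4.07, 17.6 and 5.57 CPM in the control. The muscle sum was 53.4, 35.4, 43.2, 30.5 and 66.7 CPM in the mutant, against 34.5, 49.0 and 33.8 CPM in the control, with mutant libraries 5 and 1 highest. The part of carried-over tissue in the larval cuticle values was not tested.

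Cpr12A and Cpr31A had overlapping groups. Cpr12A (X, 13543643 to 13544907) had 24.7, 18.4, 23.8, 22.8 and 24.8 CPM in mutant libraries 1 to 5, against 14.9, 29.0 and 19.4 CPM in control libraries 1 to 3. The control libraries lay on both sides of the mutant ones, and the log2 fold change was 0.12 ± 0.20 (SE; edgeR adjusted p = 0.674). Cpr31A on 2L averaged 4.64 ± 0.866 CPM in the mutant and 4.33 ± 1.61 CPM in the control (0.10 ± 0.23, edgeR adjusted p = 0.764). The other expressed members that did not pass the test were Cpr35B, Cpr67B, Cpr57A, Cpr11A, Cpr97Ea, Cpr97Eb and Lcp9, whose log2 fold changes ran from -0.78 (Cpr97Eb) to 0.75 (Lcp9). Of these Cpr97Ea passed it without mutant library 4 (-0.92, edgeR adjusted p = 0.0146; up to 0.207 over the 8 fits). Cpr57A lies wholly within exons annotated to Obp57d in BDGP6, so its counts may include reads of that odorant-binding protein gene.

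Control library 2 was the highest control library for 21 of the 30 expressed members. That share was not computed over all genes tested, so whether it is particular to the members is not known. Among the 7899 tested genes (87.0%) with a BDGP6 length, the median log2 ratio of control library 2 to the mean of control libraries 1 and 3 (0.1 CPM added) was 0.18 for the 1163 genes under 1000 exonic bases and -0.44 for the 577 genes of 6000 or more. The expressed members are short, with 394 to 2117 exonic bases and a median of 892, and had a median ratio of 0.37. The part of transcript length in the member values was not tested. Without control library 2, 14 of the 16 calls remained, Cpr67Fa2 and Cpr64Ad were lost and Cpr49Ac was gained.

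Regulators of cuticle genes and genes of the ecdysone response were examined beside the members. All 22 genes of the list were tested. It also holds the ImpE and ImpL genes, ImpL2 among them, which are not regulators of cuticle genes. On this mixed list 3 genes were called higher and 2 lower, beside 16.9% and 17.5% of all genes tested. The list's median log2 fold change was 0.12. The nuclear receptor gene ftz-f1, whose product activates Edg84A and Edg78E in prepupae, had 29.1, 38.0, 32.7, 33.7 and 30.6 CPM in mutant libraries 1 to 5, against 15.1, 6.77 and 14.5 CPM in control libraries 1 to 3. It rose by 1.43 ± 0.24 (SE) on the log2 scale with no overlap (edgeR adjusted p = 0.00224), while Edg84A and Edg78E stayed at 0 counts and near 0.2 CPM as given above. EcR, the ecdysone receptor gene, rose by 0.54 ± 0.14 (edgeR adjusted p = 0.0179), with 158, 103 and 160 CPM in control libraries 1 to 3. Control library 2 was the lowest control library for ftz-f1 and EcR, and their changes without it are not given here. Eip93F, a regulator of adult differentiation, rose by 2.27 ± 0.52 from levels under 0.5 CPM (edgeR adjusted p = 0.00986). ImpL2 and Hr78 fell by 0.32 ± 0.07 and 0.22 ± 0.06 (edgeR adjusted p = 0.00702 and 0.0157).

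Some other hormone-responsive genes varied between libraries more than between genotypes. Blimp-1, Hr4 and ImpE2 are examples picked from the list and do not stand for all of it. For instance, br had 672, 481 and 650 CPM in control libraries 1 to 3, and Eip74EF had 124, 94.8 and 119 CPM. Both were lowest in control library 2. Blimp-1, a repressor that times ftz-f1, had 35.3, 44.2, 42.1, 6.28 and 38.7 CPM in mutant libraries 1 to 5, against 8.04, 35.8 and 30.3 CPM in control libraries 1 to 3. The nuclear receptor gene Hr4 had 26.2, 37.2, 34.0, 3.35 and 29.0 CPM in the mutant, against 4.19, 21.6 and 20.7 CPM in the control. Mutant library 4 and control library 1 were low for both genes, and they were also the lowest of their genotype for Cpr49Ac. Other members differed from Cpr49Ac: mutant library 4 was the highest mutant library for 10 of the 30 expressed members, among them Cpr64Aa and Cpr51A. ImpE2, an ecdysone-inducible gene of imaginal discs, had 2988, 2226, 2471, 1706 and 2598 CPM in the mutant, against 2139.7, 4389 and 2497 CPM in the control. Its lowest mutant and control libraries and its highest control library were those of Cpr49Ac. The part of developmental timing in the member values was not tested.

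**Figure D5:**
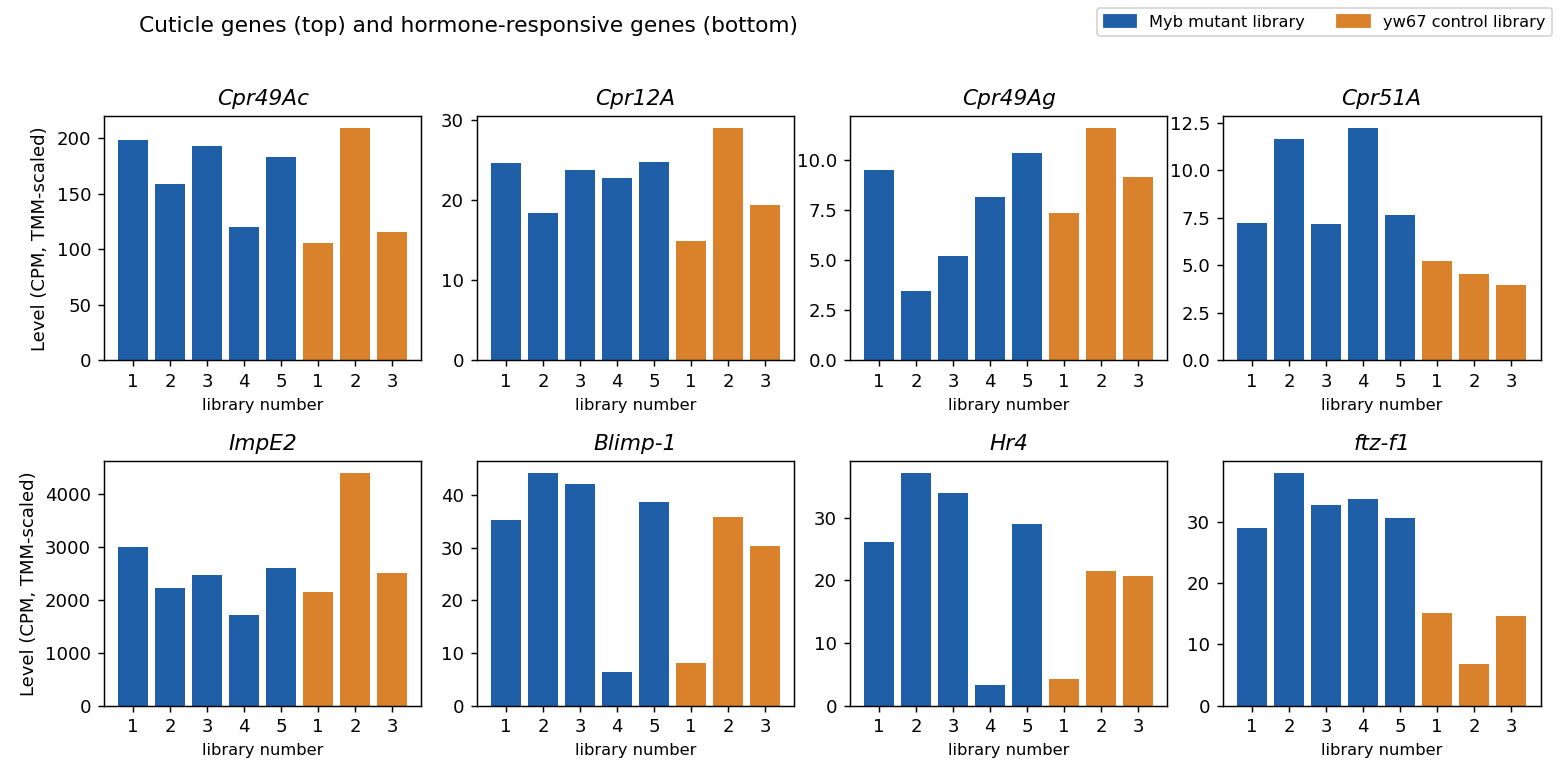
Level of 4 cuticle protein genes (top) and of 4 hormone-responsive genes (bottom) in Myb mutant libraries 1 to 5 and yw67 control libraries 1 to 3 (vertical axes, TMM-scaled CPM from 0). Blimp-1 and Hr4 are low in mutant library 4 and control library 1, Cpr49Ac and ImpE2 are highest in control library 2 within the control, and ftz-f1 and Cpr51A are higher in every mutant library than in any control library.

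A mixed list of genes for chitin synthesis and matrix assembly, not all of which act on chitin, had 23 tested members. Of these, 7 were called higher and 1 lower, beside 16.9% and 17.5% of all genes tested, and 15 were not called. The 7 were CG12063 (mey), obst-E, Gasp, SP71 (tyn), CG31973 (Cda5), sha and dyl. The median log2 fold change over the 23 was 0.11, beside 0.01 over all genes tested. The chitin synthase gene kkv had 389 to 434 CPM in mutant libraries and 374 to 433 CPM in control libraries and was not called (0.06 ± 0.06, edgeR adjusted p = 0.475). CG31973 (Cda5), a chitin deacetylase gene, rose by 0.90 ± 0.22 (edgeR adjusted p = 0.0144). It had 21.2, 9.55 and 18.3 CPM in control libraries 1 to 3, so control library 2 was again lowest. The gene obst-E, which encodes a chitin-binding protein of the larval cuticle, rose by 1.82 ± 0.41 (edgeR adjusted p = 0.00897). The hair-forming genes sha and dyl rose by 1.90 ± 0.47 and 1.39 ± 0.33 on the log2 scale, at levels under 0.5 CPM (edgeR adjusted p = 0.0142 and 0.012). The one gene called lower, CG10722 (nesd), is known for cytokinesis rather than chitin, with 64.5 to 68.5 CPM in the mutant and 169 to 172 CPM in the control. Among 12 tested chitinases and imaginal disc growth factors, 1 was called higher and 2 lower, beside 16.9% and 17.5% of all genes tested. CG9307 (Cht5) rose by 0.74 ± 0.12 (edgeR adjusted p = 0.00197). Cht3 and Chit (Idgf6) fell by 0.52 ± 0.10 and 0.88 ± 0.21 (edgeR adjusted p = 0.00494 and 0.0129), and the list's median was 0.16.

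Of 18 tested genes for tanning and pigment of the cuticle, 6 were called higher and 2 lower, beside 16.9% and 17.5% of all genes tested, with a median log2 fold change of 0.21. CG30437 (laccase2), the oxidase that cross-links cuticle proteins, had 78.4 to 83.5 CPM in mutant libraries and 42.2 to 54.4 CPM in control libraries, a rise of 0.71 ± 0.08 (edgeR adjusted p = 0.00018). The gene amd, which acts in catecholamine metabolism of the cuticle, rose by 0.68 ± 0.06 (edgeR adjusted p = 3.6e-05). The largest decrease was in CG8193 (PPO2), a prophenoloxidase gene of crystal cells, a hemocyte type. It had 0.161, 12.8, 0.597, 0.686 and 0.203 CPM in mutant libraries 1 to 5, against 32.7, 65.6 and 44.3 CPM in control libraries 1 to 3 (-4.07 ± 1.17, edgeR adjusted p = 0.027). All 5 hemocyte markers fell too, as given above, and their part in this decrease was not tested. Another prophenoloxidase gene of the list, Dox-A3 (PPO3), went the other way, with a rise of 1.13 ± 0.12 (edgeR adjusted p = 0.00017). Bc was lower without passing the test (-3.74 ± 1.30, edgeR adjusted p = 0.0534). Of 7 tested cuticle and matrix genes outside the named families, CG30101 (Vajk4) and CG4090 (Mur89F) rose by 3.54 ± 0.66 and 1.36 ± 0.34, and CG16886 (Vajk1) fell by 6.10 ± 0.59 (edgeR adjusted p = 0.00378, 0.0158 and 9.1e-05), with a median of 0.30 over the list. Vajk1 had 0 to 0.0371 CPM in mutant libraries and 1.01 to 2.23 CPM in control libraries. The rubber-like protein gene resilin had 0 CPM in all libraries but mutant library 5, at 0.0313 CPM.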

How the data were processed

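Polyadenylated RNA of 5 Myb mutant and 3 yw67 control wing disc libraries was sequenced. The authors trimmed reads (Trimmomatic 0.22 in the submitters' processing notes), aligned them with Bowtie2 2.1.0 to exons of a FlyBase gene set older than BDGP6, and summed unique counts per exon from eXpress. The deposited counts were raw read counts per gene. Strand use was not given in the sources used here. The deposited log2 fold change and p-value columns of the authors' own DESeq2 comparison were not used. A row of mitochondrial reads (0.574% to 1.341% of counts) was left out.

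Counts were analysed with edgeR 4.0.16 in R 4.3.3: filterByExpr on genotype, TMM scaling, and the quasi-likelihood test with a genotype term alone and every library. Calls were made at 0.05 after Benjamini-Hochberg adjustment over the 9076 tested genes. CPM were TMM-scaled. SE was taken from F, as the size of the log2 fold change over its square root. Scripts were tested on simulated data. DESeq2 1.42.0, other scaling and filters, single libraries left out, summed libraries and a replicate block were alternatives. Positions and lengths are from BDGP6, Ensembl release 115, where all 101 members were found.

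Members named by rule are the 12 of highest level, the called expressed ones, and the 2 on each side of 0.5 CPM. Other members, such as Edg91, Edg78E and Pcp, are named outside that rule, to describe clusters and stages or after their values were seen. No measured value entered the symbol rule for members, but the gene families and lists were chosen with earlier results of these data known. Floors (3 counts over a group) cover counting error only.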

Additional observations from a re-analysis of the deposited data

Results flagged for a closer look

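The values of 5 genes lay far from the other 4 mutant libraries by Dixon's ratio (critical value 0.71 for 5 samples; chance alone does so in about 1 of 20 groups, and 29 genes were checked). The 29 include Lcp1 to Lcp4 and Lcp65Ab1, which were chosen after their uneven mutant libraries had been seen, so that rate does not apply to them. They included larval cuticle genes in mutant library 1: Lcp3 at 1.33 CPM, with the other mutant libraries at 0 to 0.153 CPM, Lcp65Ab1 at 1.13 CPM (others 0.0156 to 0.122 CPM) and Lcp65Ab2 at 1.25 CPM (others 0.0156 to 0.0927 CPM). Cpr31A also stood highest in mutant library 1, at 6.16 CPM against 4.04 to 4.47 CPM in the others. Cpr97Ea stood apart in mutant library 4, at 0.612 CPM against 0.305 to 0.329 CPM in the others.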

How the results depend on the processing

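With libraries summed by described biological replicate, where the lone control sum was assumed to vary like the mutant sums, 3 members were called higher and 1 lower, and at 2-fold or more 1 and 1, in place of 9 and 7, and 7 and 4. With a mean of 1 CPM or more required, 4 were called lower, 1 of them by 2-fold. Leaving out 1 library at a time gave 7 to 10 called higher, 4 to 9 lower, 5 to 8 higher by 2-fold, 3 to 7 lower by 2-fold (7 without mutant library 1, and 4 called lower without control library 1), and 29 to 32 expressed members. Without mutant libraries 1 and 5 together, chosen after seeing that they were high for larval cuticle genes, 10 were lower by 2-fold, and 12 of the 16 calls remained, with Cpr64Aa (-0.34), Cpr67Fa1, Cpr67Fa2 and Cpr78E lost. A threshold of expression of 0.25 CPM gave 38 expressed members and one of 1 CPM gave 22. DESeq2 kept all 16 calls and added Cpr47Ec. Shares over all genes are given for the main fit alone. The counts of members called under other settings, here and below, therefore cannot be set against the whole table.

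Some uncalled log2 fold changes changed sign: Cpr12A (-0.08 without control library 1, up to 0.41 with other single libraries left out), Cpr31A (up to 0.44, but -0.02 without mutant library 1, -0.06 and -0.03 without control libraries 1 and 3, -0.03 without mutant libraries 1 and 5), Lcp1 (up to 1.08, but -0.00039 without mutant library 5, -2.21 without 1 and 5), Lcp4 (up to 0.70, but -0.60 without mutant library 1, -2.07 without 1 and 5), and with summed libraries Lcp2 (0.04), Lcp65Ab1 (0.79) and Lcp65Ab2 (0.39). The cause was not tested.

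The titles give both genotypes the numbers 1 to 3. Libraries numbered 1 deviated together to a degree (correlation of 0.307), while those numbered 2 and 3 did not (-0.112 and 0.0247). The numbers were taken to pair nothing in the main fit, although a link between the libraries numbered 1 is not excluded. A replicate block on them gave 5 members called higher and 3 lower (3 and 1 at 2-fold), keeping 8 of the 16 calls, and -0.94 for Lcp1 and -0.86 for Lcp4. Calls lost with the block were those for Cpr47Eb, Lcp65Ag2, Cpr62Bc, Cpr56F, Cpr72Ea, Cpr78E, Cpr67Fa2 and Cpr64Ad. Their edgeR adjusted p ran from 0.0506 (Lcp65Ag2) to 0.16 (Cpr64Ad).

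Members under 1 CPM rest on few counts per library, and 60 members were too low to test.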

Other observations

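Counts of 2 examples among the 60 members too low for the test are given as values, picked after they were seen. Ccp84Ag of the Ccp84A cluster had 1, 2, 13, 8 and 1 counts in mutant libraries 1 to 5 and 0 in each control library. The 3 members of the Cpr 78C cluster summed to 0.0156 to 0.197 CPM in mutant libraries and 0 to 0.0199 CPM in control libraries, with overlap between the genotypes. Neighbours could differ widely in level: in the 8.58 kb of the Cpr 64A cluster, Cpr64Aa averaged 132 CPM in the mutant and 178 CPM in the control, while Cpr64Ac, not tested, averaged 0.130 and 0.0553 CPM in the mutant and the control.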
